A study of Mus musculus with 8 samples.

Results

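The Hippo-YAP effectors and target genes described here are *Yap1*, *Wwtr1*, *Tead1*, *Lats1*, *Lats2*, *Ankrd1*, *Amotl2*, *Ajuba*, *Nuak2* and *Axl*. These 10 symbols were chosen by name, with no threshold on a measured value but with earlier results of these data known. They match 11 entries among the 55385 gene identifiers of the deposited expression table, because *Lats2* is listed under 2 identifiers. Liver RNA was sequenced from 4 *Usp39*-HKO mice and 4 control littermates, with 1 library per mouse. All were male C57BL/6J mice, 5 weeks old and fasted for 16 h. The *Usp39*-HKO mice carry a floxed *Usp39* (*Usp39* fl/fl, exon 2 flanked by loxP sites) and Cre under the albumin promoter (Alb-Cre). The paper describes this as a hepatocyte-specific deletion of *Usp39*, a spliceosome component. Which other liver cells keep the gene is not shown by the labels or by these data. The labels call the controls WT, and the sources used here do not state whether those mice carry floxed alleles.

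In the Hippo pathway, a kinase cascade ending in LATS1 and LATS2 phosphorylates the coactivators YAP (from *Yap1*) and TAZ (from *Wwtr1*), which are then held in the cytoplasm and degraded. Unphosphorylated YAP and TAZ enter the nucleus, bind TEAD factors such as TEAD1 and switch on target genes. In the liver the pathway is known for its control of organ size and of the bile duct fate of epithelial cells. Much of its regulation acts on proteins, which mRNA levels do not show.

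TEAD factors bind DNA at a short core sequence, GGAATG, which is read on the opposite strand as CATTCC, and the promoters of the members were searched for it. The RefSeq promoter table (GRCm38.p6, 250 bases before to 50 bases after each start) held 8 of the 10 members, all but *Tead1* and *Nuak2*. The core occurred in at least 1 promoter of 7 of these 8, all but *Lats1*, and in 4817 of all 32851 promoters in the table (14.7%). Counted by gene, 4481 of 27025 genes (16.6%) had it. Of 17 other YAP/TAZ target genes described further on, 11 had a promoter entry and 3 of these (*Ccn1*, *Crim1* and *Ptpn14*) had the core. The sites of *Yap1*, of the 3 members that rose and have a promoter entry, and of *Ankrd1* are shown, since the results below turn on these genes. Each is 26 bases long, 5′ to 3′ in the direction of the gene, with the core in capitals.
*Yap1*, 141 bases before the start: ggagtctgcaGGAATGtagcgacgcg
*Wwtr1*, 136 or 170 bases before its 2 listed starts: taaactcaaaGGAATGcagataggcg
*Axl*, 233 bases before the start: aaattctacaGGAATGtttaccagac
*Ajuba*, 186 bases before the start: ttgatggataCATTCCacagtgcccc
*Ajuba*, 164 bases before the start: cccctccgcgCATTCCaactgtaaac
*Ankrd1*, 210 bases before the start: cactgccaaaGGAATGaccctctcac
*Ankrd1*, 123 bases before the start: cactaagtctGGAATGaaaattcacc
They lie at chr9:8004722-8004747 for *Yap1*, chr3:57576031-57576056 for *Wwtr1* and chr7:25788951-25788976 for *Axl*. Those of *Ajuba* lie at chr14:54577832-54577857 and chr14:54577810-54577835, and those of *Ankrd1* at chr19:36120039-36120064 and chr19:36119952-36119977, all on the minus strand of GRCm38.p6. *Yap1*, whose mRNA was not called, and *Axl*, whose mRNA rose, had 1 core each. *Amotl2* and *Lats2*, also not called, had a core as well (for *Lats2* in 1 of its 2 promoters), and these sites are not shown. A letter match is a description of these promoters and no evidence of binding.

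Counts on genes summed to between 8589636 and 10418450 per control mouse and between 9479922 and 10195028 per *Usp39*-HKO mouse. Levels are given as the deposited FPKM, counts scaled to the exon length of the gene and to the total of the mouse, which allow genes of different length to be compared. Fold changes are those of edgeR's quasi-likelihood test on the counts with TMM scaling, which centres the median gene (log2 fold change −0.0015). Without that scaling the median log2 fold change was 0.24, and FPKM, which are not scaled by TMM, give larger *Usp39*-HKO to control ratios than the scaled values. A gene was tested where its FPKM reached 0.5 in at least 4 of the 8 mice, and called at a Benjamini-Hochberg adjusted p under 0.05 over the 14340 genes tested. *Usp39* itself was at 9.35, 10.4, 8.76 and 9.78 FPKM in control mice 1 to 4 and at 8.37, 8.63, 8.70 and 8.07 FPKM in *Usp39*-HKO mice 1 to 4. The groups did not overlap, and the log2 fold change was −0.41 (SE 0.11, edgeR adjusted p = 0.0212). This call was lost without control mouse 4 (adjusted p = 0.0547) or *Usp39*-HKO mouse 4 (0.0615), and the gene count includes exons outside the floxed one as well as RNA of cells without Cre.

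Of the 10 members, 4 rose in *Usp39*-HKO livers: the coactivator gene *Wwtr1*, the TEAD factor gene *Tead1* and the target genes *Ajuba* and *Axl*. No member fell. *Yap1*, *Lats1*, *Lats2*, *Amotl2* and *Nuak2* were tested and did not pass, and *Ankrd1* was too low in the controls to be tested with the filter and is described from its counts. The 9 tested members had an FPKM over 0.5 in all 8 mice, so none passed the filter only through the *Usp39*-HKO group. Among all genes tested, 22.5% were called, 10.9% as higher and 11.6% as lower. The median log2 fold change of the 9 members was 0.30, against −0.0015 over all genes tested. Since the members were chosen with earlier results of these data known, these comparisons describe the set and are no test of it. The calls of *Wwtr1*, *Tead1*, *Ajuba* and *Axl* were kept when any of the 8 mice was left out.

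**Figure D1:**
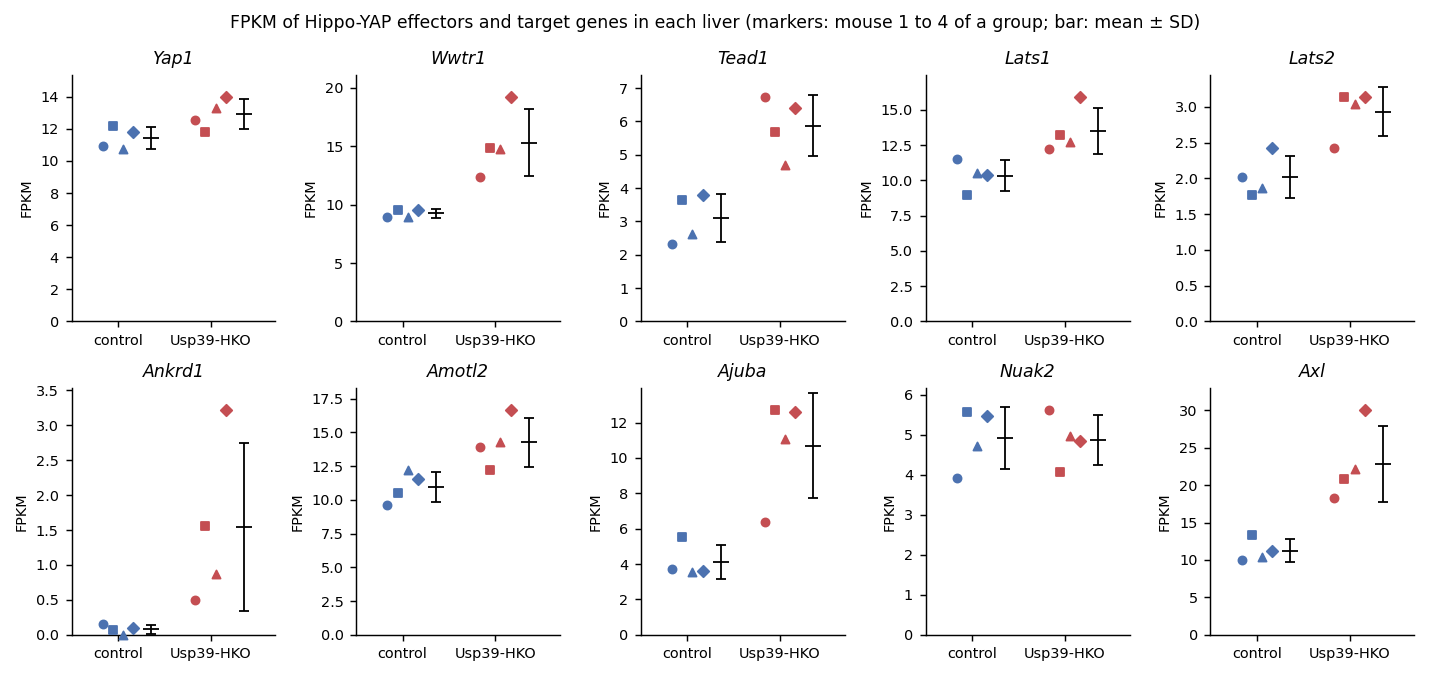
FPKM of each of the 10 genes (y axis, linear from 0) in the 4 control and 4 *Usp39*-HKO livers; each marker shape is mouse 1 to 4 of its group, and bars give mean ± SD. *Axl* spans 9.95 to 13.4 FPKM in controls and 18.2 to 30.0 FPKM in *Usp39*-HKO livers, whereas the groups overlap for *Yap1*, *Lats2* and *Nuak2*.

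**Figure D2:**
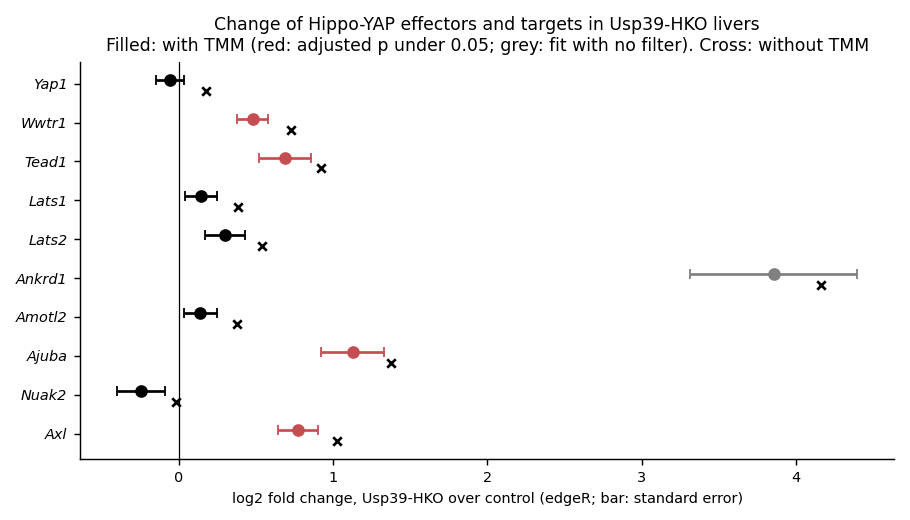
Log2 fold change of each gene in *Usp39*-HKO over control livers from edgeR (x axis), with standard errors; crosses are the same fit without TMM scaling, and the grey point of *Ankrd1* is from the fit with no filter on low values. *Yap1* lies at −0.06 with scaling and 0.18 without, *Ajuba* at 1.13 and *Ankrd1* at 3.86.

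The coactivator genes differed from each other. *Yap1* (chr9, 7931999 to 8004596, minus strand, GRCm38) was at 10.95, 12.2, 10.7 and 11.8 FPKM in control mice 1 to 4 and at 12.5, 11.8, 13.3 and 14.0 FPKM in *Usp39*-HKO mice 1 to 4. *Usp39*-HKO mouse 2 lay below control mouse 2, so the groups overlapped. The means were 11.4 ± 0.691 and 12.9 ± 0.947 FPKM (SD, n = 4 each, two-sided exact permutation p = 0.0571, where 0.0286 is the smallest that 4 against 4 mice allow). With scaling the sign turned, at a log2 fold change of −0.06 (SE 0.09, edgeR adjusted p = 0.696), and 2 standard errors either side reached from −0.24 to 0.12. Without TMM scaling it was 0.18 (adjusted p = 0.194).

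*Wwtr1* (chr3, 57455649 to 57575910, minus strand), which encodes TAZ, was at 8.96, 9.58, 8.94 and 9.52 FPKM in control mice 1 to 4 and at 12.3, 14.9, 14.7 and 19.2 FPKM in *Usp39*-HKO mice 1 to 4. Each *Usp39*-HKO liver lay above each control liver, mouse 4 highest and mouse 1 lowest. The means were 9.25 ± 0.349 and 15.3 ± 2.87 FPKM (SD, n = 4 each, ratio 1.65). On the log2 scale *Wwtr1* rose by 0.48 (SE 0.10, edgeR adjusted p = 0.00775) and ran from 0.40 to 0.56 when any mouse was left out.

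Within each mouse the level of *Yap1* relative to *Wwtr1* does not depend on the scaling of the library. The ratio of *Yap1* FPKM to *Wwtr1* FPKM was 1.22, 1.27, 1.20 and 1.24 in control mice 1 to 4, and 1.02, 0.794, 0.903 and 0.727 in *Usp39*-HKO mice 1 to 4. By FPKM, *Yap1* was thus the higher of the pair in each control liver, and *Wwtr1* in 3 of the 4 *Usp39*-HKO livers, with *Usp39*-HKO mouse 1 near parity. Which of the pair is higher rests on the division by exon length. By TMM-scaled counts, not divided by length, the ratio was 2.32 to 2.46 in control and 1.41 to 1.97 in *Usp39*-HKO livers. The mean log2 ratio of FPKM was 0.30 ± 0.036 in control and −0.23 ± 0.21 in *Usp39*-HKO livers, a difference of −0.53 (SD, n = 4 each, two-sided exact permutation p = 0.0286). It ran from −0.62 to −0.45 when any mouse was left out. The exact permutation p was 0.0571 without any control mouse, although the 3 remaining controls still did not overlap the *Usp39*-HKO mice.

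**Figure D3:**
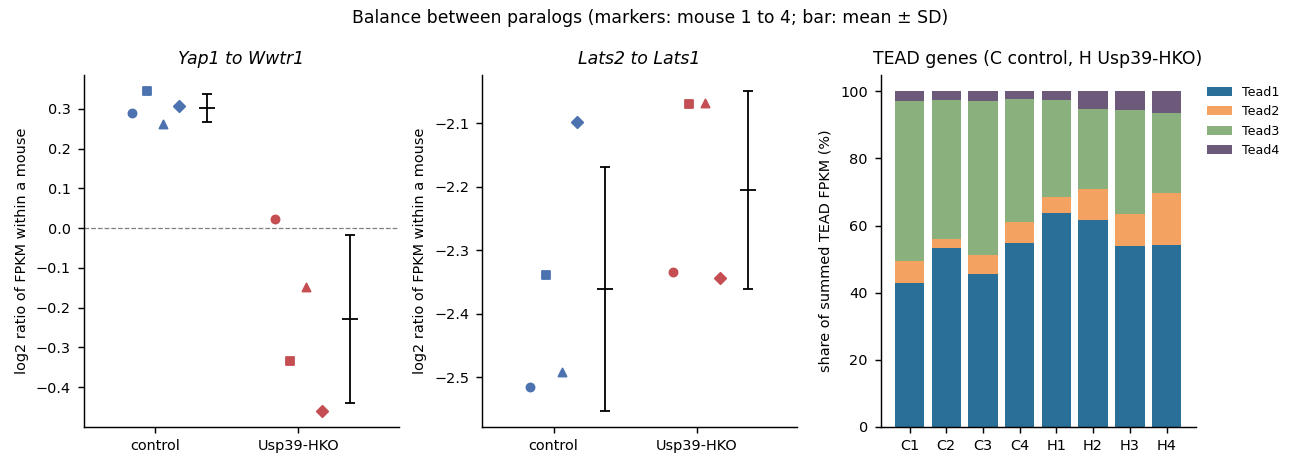
Left and middle, log2 ratio of *Yap1* to *Wwtr1* FPKM and of *Lats2* to *Lats1* FPKM within each mouse (y axis), with mean ± SD by group; right, share of the summed FPKM of *Tead1* to *Tead4* held by each (y axis, percent) in control mice (C) and *Usp39*-HKO mice (H) 1 to 4. The *Yap1* to *Wwtr1* ratios do not overlap between groups (0.30 ± 0.036 against −0.23 ± 0.21), those of *Lats2* to *Lats1* do, and *Tead3* holds 36.7 to 47.8% in control mice and 23.8 to 30.9% with *Usp39* deleted.

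*Tead1* (chr7, 112679318 to 112906807, plus strand), the DNA-binding partner in the set, was at 2.34, 3.64, 2.63 and 3.81 FPKM in control mice 1 to 4 and at 6.73, 5.68, 4.69 and 6.40 FPKM in *Usp39*-HKO mice 1 to 4. The groups did not overlap, and here *Usp39*-HKO mouse 1 was the highest of all livers. The means were 3.10 ± 0.731 and 5.88 ± 0.905 FPKM (SD, n = 4 each, ratio 1.89). The log2 fold change was 0.69 (SE 0.17, edgeR adjusted p = 0.0139), and the adjusted p came to 0.0499 without control mouse 3.

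The balance of the TEAD genes was compared as shares of their summed FPKM, of which *Tead1* and *Tead3* held most in each liver, with *Tead3* above *Tead1* in control mice 1 and 3. *Tead1* held 42.8 to 54.9% of that sum in control and 53.9 to 63.7% in *Usp39*-HKO livers, which overlapped (two-sided exact permutation p = 0.0857). *Tead3* held 36.7 to 47.8% in control and 23.8 to 30.9% in *Usp39*-HKO livers, with no overlap (exact permutation p = 0.0286). The level of *Tead3* itself was 2.66 ± 0.126 FPKM in control and 2.68 ± 0.362 FPKM in *Usp39*-HKO livers (SD, n = 4 each), with a log2 fold change of −0.22 (edgeR adjusted p = 0.267). *Tead2* and *Tead4* did not reach the filter. *Tead2* was at 0.329 ± 0.0987 and 0.998 ± 0.564 FPKM and *Tead4* at 0.160 ± 0.0070 and 0.509 ± 0.195 FPKM in control and *Usp39*-HKO livers (SD, n = 4 each). In the fit with no filter on low values their log2 fold changes were 1.30 (edgeR adjusted p = 0.0068) and 1.36 (adjusted p = 0.0213).

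Neither LATS kinase gene was called with scaling. *Lats1* (chr10, 7681214 to 7716460, plus strand) was at 11.5, 8.93, 10.5 and 10.4 FPKM in control mice 1 to 4 and at 12.2, 13.2, 12.7 and 15.9 FPKM in *Usp39*-HKO mice 1 to 4. The FPKM groups did not overlap, but once divided by the TMM factors they did. The log2 fold change was 0.14 (SE 0.10, edgeR adjusted p = 0.336), and 2 standard errors either side reached from −0.06 to 0.35. Without TMM scaling it was 0.39 (adjusted p = 0.0285), in a fit where 24.6% of all genes were called as higher.

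*Lats2* (chr14, 57689662 to 57758388, minus strand) was at 2.02, 1.77, 1.87 and 2.42 FPKM in control mice 1 to 4 and at 2.42, 3.14, 3.04 and 3.13 FPKM in *Usp39*-HKO mice 1 to 4. Control mouse 4 and *Usp39*-HKO mouse 1 stood together between the other mice of each group, and the groups overlapped by this pair (two-sided exact permutation p = 0.0571, n = 4 each). The log2 fold change was 0.30 (SE 0.13, edgeR adjusted p = 0.119) with scaling and 0.54 (adjusted p = 0.0175) without. Of the exon bases of *Lats2*, 42.4% are shared with a readthrough gene on the same strand (Gm49361), which is the second identifier listed under the symbol *Lats2* and has 0 counts in all 8 mice, so the level of *Lats2* is uncertain. The ratio of *Lats2* to *Lats1* FPKM was 0.175 to 0.234 in control and 0.197 to 0.238 in *Usp39*-HKO livers, a log2 difference of 0.16 (two-sided exact permutation p = 0.2, n = 4 each).

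Among the target genes, *Ankrd1* (chr19, 36111961 to 36120099, minus strand), an ankyrin repeat protein gene widely used as a readout of YAP activity, was nearly absent from control livers. It had 4, 2, 0 and 3 counts in control mice 1 to 4 and 14, 46, 24 and 88 counts in *Usp39*-HKO mice 1 to 4. The lowest *Usp39*-HKO liver, mouse 1, thus had more counts than all controls together, and the 4 *Usp39*-HKO livers differed among themselves by a larger ratio than those of any other member. The FPKM were 0.0802 ± 0.0631 in control and 1.54 ± 1.20 in *Usp39*-HKO livers (SD, n = 4 each, two-sided exact permutation p = 0.0286). *Usp39*-HKO mouse 1 was at 0.499 FPKM, which left the gene 1 mouse short of the filter.

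Summed over the mice, 9 counts of *Ankrd1* in controls and 172 in *Usp39*-HKO livers correspond to 0.236 and 4.42 CPM, that is, counts divided by library totals. The ratio of these rates was 18.7, with an exact 95% interval of 9.63 to 41.6 that covers counting error only. In the fit with no filter on low values, where 6.41% of 28412 genes were called as higher, the log2 fold change was 3.86 (SE 0.54, edgeR adjusted p = 7.45e-06). It ran from 3.32 to 4.29 when any mouse was left out, without TMM scaling or with DESeq2, alternatives that were added after the filter was seen to remove the gene. The fitted value depends on how near to 0 the control counts lie.

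*Ajuba* (chr14, 54567472 to 54577558, minus strand), which encodes a LIM domain protein that binds LATS kinases, was at 3.73, 5.53, 3.58 and 3.63 FPKM in control mice 1 to 4 and at 6.41, 12.7, 11.1 and 12.6 FPKM in *Usp39*-HKO mice 1 to 4. The groups did not overlap, with *Usp39*-HKO mouse 1 well below the other 3 and next to control mouse 2. The means were 4.12 ± 0.945 and 10.7 ± 2.95 FPKM (SD, n = 4 each), a ratio of 2.60. Its log2 fold change was 1.13 (SE 0.20, edgeR adjusted p = 0.00348), and 1.03 to 1.31 when any mouse was left out.

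*Axl* (chr7, 25757273 to 25788705, minus strand), a receptor tyrosine kinase gene, was at 9.95, 13.4, 10.4 and 11.2 FPKM in control mice 1 to 4 and at 18.2, 20.9, 22.2 and 30.0 FPKM in *Usp39*-HKO mice 1 to 4. The groups did not overlap, with *Usp39*-HKO mouse 4 highest. The means were 11.2 ± 1.51 and 22.8 ± 5.06 FPKM (SD, n = 4 each), a ratio of 2.03. The log2 fold change was 0.78 (SE 0.13, edgeR adjusted p = 0.0025), and 0.67 to 0.87 when any mouse was left out.

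*Amotl2* (chr9, 102716672 to 102733418, plus strand), an angiomotin family gene whose protein binds YAP, was at 9.63, 10.5, 12.2 and 11.5 FPKM in control mice 1 to 4 and at 13.9, 12.2, 14.3 and 16.6 FPKM in *Usp39*-HKO mice 1 to 4. Control mouse 3 and *Usp39*-HKO mouse 2 were at the same level to 3 digits, and the groups overlapped once divided by the TMM factors. The log2 fold change was 0.14 (SE 0.11, edgeR adjusted p = 0.382) with scaling, with 2 standard errors either side reaching from −0.07 to 0.36, and 0.38 (adjusted p = 0.0332) without.

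*Nuak2* (chr1, 132316126 to 132333488, plus strand), a kinase gene of the AMPK-related family, was at 3.92, 5.58, 4.72 and 5.48 FPKM in control mice 1 to 4 and at 5.62, 4.08, 4.97 and 4.84 FPKM in *Usp39*-HKO mice 1 to 4. The ranges of the groups overlapped almost fully. The means were 4.93 ± 0.775 and 4.88 ± 0.631 FPKM (SD, n = 4 each), and the log2 fold change was −0.24 (SE 0.15, edgeR adjusted p = 0.285), with 2 standard errors either side reaching from −0.55 to 0.06. The targets of the set therefore gave unlike values, from *Nuak2* at −0.24 to *Ajuba* at 1.13 among those tested, and the differences between targets were not tested.

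Whether groups overlapped depended on the scale. By FPKM, 7 of the 10 members had each *Usp39*-HKO liver above each control liver, 6 of them among the 9 tested, where 23.9% of all genes tested had this pattern and 4.81% the opposite one. After division by the TMM factors it was 5 of 10 (*Wwtr1*, *Tead1*, *Ankrd1*, *Ajuba* and *Axl*), 4 of them among the 9 tested, against 11.8% of all genes tested, with 13.0% the opposite way. Without TMM scaling, or with limma on log2(FPKM + 1) or log2(FPKM + 0.1), 7 of 9 members were called as higher, with *Lats1*, *Lats2* and *Amotl2* added. In these fits 24.6%, 21.1% and 21.3% of all genes tested were called as higher. The calls over all genes were 48.4% higher with TMM scaling and 83.5% higher without.

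The order of the levels also differed between groups. In control livers *Yap1*, *Axl*, *Amotl2*, *Lats1* and *Wwtr1* had the highest mean FPKM, from 11.4 to 9.25, and each overlapped its neighbour in range. A gap separated *Wwtr1* from *Nuak2*, followed by *Ajuba*, *Tead1* and *Lats2*, and another gap separated *Lats2* from *Ankrd1*. In *Usp39*-HKO livers *Axl* came highest and *Wwtr1* next, above *Amotl2*, *Lats1* and *Yap1*, and *Ajuba* and *Tead1* stood above *Nuak2*. There only *Nuak2* and *Lats2*, at 4.88 and 2.93 FPKM, were neighbours without overlap.

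The members did not rank the *Usp39*-HKO mice alike. On the scaled values, *Usp39*-HKO mouse 4 was the highest of its group for *Wwtr1*, *Lats1*, *Ankrd1*, *Amotl2* and *Axl* and the lowest for none. *Usp39*-HKO mouse 1 was the lowest for *Wwtr1*, *Lats2*, *Ankrd1*, *Ajuba* and *Axl*, but the highest for *Tead1* and *Nuak2*. The genes whose scaled profile over the 8 mice lay nearest to that of *Yap1* were *Sh2b1*, *Rpn2* and *Elp3*, with root mean square differences of 0.0494, 0.0514 and 0.0534 on the log2 scale, and none of them was called. For *Ankrd1* these were *Calml4*, *Cdkn3* and *Cdca3*, at 0.547, 0.651 and 0.673, with edgeR log2 fold changes of 3.64, 2.88 and 3.03. The profiles hold the difference between the groups, so the calls and fold changes of these genes follow from how they were picked.

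The genes of the core kinase cassette upstream of YAP and TAZ did not pass the test, and neither did the upstream regulator *Nf2*. *Stk3* and *Stk4* (the MST kinases), *Sav1*, *Mob1a*, *Mob1b* and *Nf2* had log2 fold changes between −0.20 and 0.29, with none called (edgeR adjusted p from 0.132 to 0.816). By FPKM, each *Usp39*-HKO liver lay above each control for *Sav1*, *Mob1a* and *Mob1b*, as for 23.9% of all genes tested. Divided by the TMM factors, these 3 overlapped. *Nf2* overlapped by FPKM, but each *Usp39*-HKO liver lay below each control after that division, as for 13.0% of all genes tested. Of 24 other kinases, adaptors and upstream regulators of the pathway, 23 were tested, with 5 higher and 1 lower. With the other TEAD factors and VGLL cofactors, 25 genes were tested, of which 7 (28.0%) were called, against 22.5% of all genes, and their median log2 fold change was 0.12. All but *Ptpn14* of these 25 had an FPKM of at least 0.5 in all 8 mice.

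*Map4k4*, a kinase that can phosphorylate LATS, was at 3.40, 5.66, 3.95 and 3.89 FPKM in control mice 1 to 4 and at 9.68, 12.4, 11.5 and 15.8 FPKM in *Usp39*-HKO mice 1 to 4, with a log2 fold change of 1.30 (SE 0.16, edgeR adjusted p = 6.70e-04). The groups stood well apart. *Ptpn14*, a phosphatase gene whose protein binds YAP, rose by 1.29 (adjusted p = 0.00514), *Rassf1* by 0.99 (0.00316), *Frmd6* by 0.94 (0.00525) and *Dlg5* by 0.51 (0.0159). *Ptpn14* reached the filter through the *Usp39*-HKO livers, and its control mean was 0.499 FPKM. The call of *Dlg5* was lost without control mouse 3 (adjusted p = 0.0583), and 42.7% of the exon bases of *Rassf1* overlap a gene on the opposite strand, which counts made without strand could not separate.

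*Taok3*, another kinase of the pathway, fell from 12.7 ± 0.615 to 10.1 ± 0.877 FPKM (SD, n = 4 each, log2 fold change −0.57, SE 0.09, edgeR adjusted p = 0.00243). *Vgll4*, whose protein competes with YAP for TEAD, was at 6.14 ± 0.797 and 5.33 ± 0.350 FPKM (SD, n = 4 each), with a log2 fold change of −0.43 (SE 0.13, adjusted p = 0.0340). This call was lost without control mouse 2, 3 or 4 (adjusted p = 0.0519, 0.11 and 0.0661) and without *Usp39*-HKO mouse 2, 3 or 4 (0.0680, 0.0615 and 0.0961). *Vgll3* was below the filter, and *Vgll1* and *Vgll2* had 0 counts in all mice, where 3 counts correspond to 0.288 to 0.349 CPM. *Fat4*, an atypical cadherin gene, was also below the filter, at 0.454 ± 0.0342 and 0.525 ± 0.0609 FPKM (SD, n = 4 each).

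**Figure D4:**
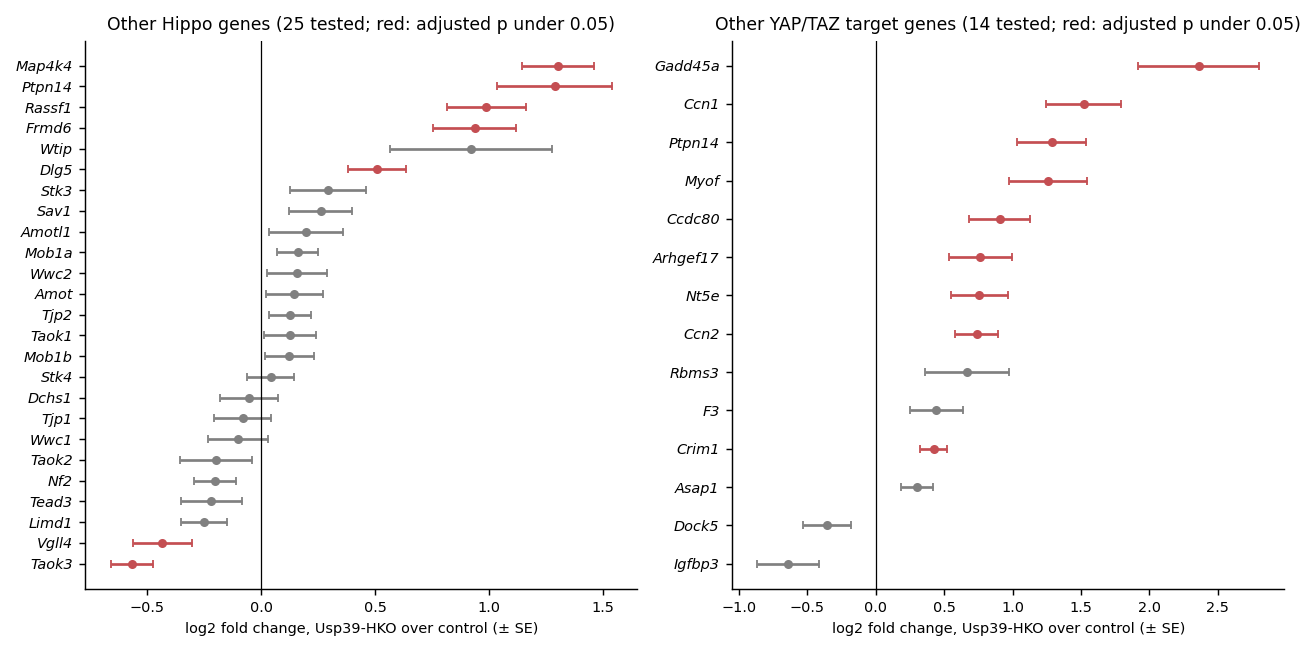
Log2 fold change with standard error (x axis, edgeR with TMM scaling) of the 25 other Hippo genes tested (left) and the 14 other YAP/TAZ target genes tested (right); red marks an adjusted p under 0.05. On the left 5 genes are higher and 2 lower, from *Map4k4* at 1.30 to *Taok3* at −0.57, and on the right 9 are higher and 0 lower, with *Gadd45a* at 2.36.

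Of 17 other genes commonly used as YAP/TAZ targets, 14 were tested, of which 9 rose and none fell, with a median log2 fold change of 0.75, where 10.9% of all genes tested were called as higher and 11.6% as lower. Of these 14, 12 had an FPKM of at least 0.5 in all 8 mice. *Ptpn14*, which reached the filter through the *Usp39*-HKO livers, is counted among the 9 that rose. The list was chosen with earlier results of these data known, so the count and median describe it and are no test. *Gadd45a*, a stress-response gene that p53 also controls, was at 0.607 ± 0.0686 FPKM in control and 3.77 ± 2.33 FPKM in *Usp39*-HKO livers (SD, n = 4 each, log2 fold change 2.36, SE 0.44, edgeR adjusted p = 0.00422). *Ccn1*, which encodes the matricellular protein CYR61, was at 10.1, 8.04, 6.11 and 6.42 FPKM in control mice 1 to 4 and at 18.5, 15.4, 28.0 and 43.4 FPKM in *Usp39*-HKO mice 1 to 4 (log2 fold change 1.52, SE 0.27, adjusted p = 0.00353). *Usp39*-HKO mouse 4 was again highest, but mouse 2, not mouse 1, was lowest.

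*Ptpn14*, which is in both lists, and *Myof*, a membrane repair gene, followed at 1.29 and 1.26 (edgeR adjusted p = 0.00514 and 0.0104). *Ccdc80* rose by 0.91 (adjusted p = 0.0151) and *Arhgef17* by 0.76 (0.0324). *Nt5e*, *Ccn2* and *Crim1* passed as well, with log2 fold changes of 0.76, 0.74 and 0.42, of which *Ccn2*, the connective tissue growth factor gene, was at 11.9 ± 1.49 and 23.5 ± 6.70 FPKM (SD, n = 4 each). The call of *Ccdc80* was lost without control mouse 3 or 4 (adjusted p = 0.0508 and 0.0511), and that of *Nt5e* without control mouse 1, 3 or 4 (0.0684, 0.0718 and 0.0687). That of *Arhgef17* was lost without control mouse 1, 3 or 4 (0.0748, 0.0906 and 0.0975) or *Usp39*-HKO mouse 2 or 4 (0.0617 and 0.0965).

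The targets that did not pass were not all positive. *Igfbp3* was at 29.0 ± 5.11 and 21.6 ± 5.95 FPKM (SD, n = 4 each), with a log2 fold change of −0.64 (edgeR adjusted p = 0.0622), and *Dock5* was at −0.36 (adjusted p = 0.171). *Asap1*, *F3* and *Rbms3* were at 0.30, 0.44 and 0.67 (adjusted p = 0.0881, 0.127 and 0.141). Below the filter, *Tgfb2* and *Fjx1* had log2 fold changes of 1.42 and 2.64 in the fit with no filter (edgeR adjusted p = 0.00113 and 0.00639), and *Foxf2* had 0 counts in all mice.

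In bulk liver, more cells of a type and more RNA per cell cannot be told apart, and YAP/TAZ targets are also expressed outside hepatocytes, so marker lists were measured beside the members. These lists too were chosen with earlier results of these data known, so their counts are no test. Over all genes tested, 10.9% were called as higher and 11.6% as lower. Of 8 hepatocyte markers none rose and 3 fell, *Serpina1c* (−0.80), *Cyp2e1* (−0.70) and *Cps1* (−0.48). All 8 had a negative log2 fold change, from −0.80 to −0.14 with a median of −0.41. Their summed FPKM, which are not scaled by TMM, were 17171 to 18954 in control and 14700 to 20439 in *Usp39*-HKO livers, which overlapped. Of 8 cholangiocyte markers, 5 of 6 tested rose (*Spp1* 2.32, *Epcam* 2.11), 2 of the 6 having been below the filter level in at least 1 control mouse. Of 10 stellate cell and fibroblast markers, 8 of 10 tested rose (*Lum* 2.42, *Col1a1* 1.7), and of 8 macrophage markers, 6 rose (*Marco* 1.25, *Cd68* 0.86). Of 8 endothelial markers none rose and 2 fell (*Lyve1* −0.997, *Stab2* −0.37), so 25% were called, near the 22.5% of all genes tested. Of 6 mesothelial markers, 1 of 3 tested rose (*Krt19*, also a cholangiocyte marker), of 6 lymphocyte markers 0 of 4 tested were called, of 6 proliferation markers 5 rose (*Ccnb1* 3.38, *Plk1* 2.43), with 2 of the 6 below the filter level in at least 1 control mouse, and of 5 erythroid markers all 4 tested fell (*Hbb-bt* −1.76, *Alas2* −1.72).

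Several of these marker counts rested on single mice. Without control mouse 3, no hepatocyte or endothelial marker was called and 2 macrophage markers were, *Marco* and *Vsig4*. The hepatocyte markers that fell numbered 0 without control mouse 1, 1 without control mouse 4 or *Usp39*-HKO mouse 2 or 3, 2 without *Usp39*-HKO mouse 4, and 4 without *Usp39*-HKO mouse 1. The macrophage markers that rose numbered 3 without control mouse 1, control mouse 4 or *Usp39*-HKO mouse 4, and 4 without *Usp39*-HKO mouse 3. The call of *Stab2* was kept only without *Usp39*-HKO mouse 1 (edgeR adjusted p from 0.0722 to 0.12 in the 7 other cases), and that of *Lyve1* was lost only without control mouse 3 (0.0537). When any mouse was left out, 4 or 5 cholangiocyte, 7 to 10 stellate cell and fibroblast and 5 proliferation markers rose.

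The summed cholangiocyte markers were at 34.8 to 37.2 FPKM in control livers and at 74.8, 150, 159 and 301 FPKM in *Usp39*-HKO mice 1 to 4. The stellate cell and fibroblast markers ranged from 81.2 to 94.4 FPKM in controls and stood at 128, 249, 200 and 285 FPKM in *Usp39*-HKO mice 1 to 4. Both sums were lowest in *Usp39*-HKO mouse 1 and highest in mouse 4. By FPKM so were *Wwtr1*, *Ankrd1*, *Axl* and the uncalled *Lats1*, whereas *Tead1* was highest in mouse 1. The TMM factors, by which FPKM are not divided, were 1.012, 1.086, 1.064 and 1.189 in *Usp39*-HKO mice 1 to 4. They too were lowest in mouse 1 and highest in mouse 4. The macrophage markers ranged from 250 to 351 FPKM in controls and stood at 493, 471.7, 480 and 660 FPKM in *Usp39*-HKO mice 1 to 4, and the endothelial markers to 119 to 134 and 123 to 129 FPKM. No cholangiocyte, stellate cell or macrophage marker had 0 counts throughout. The part of these cells in the levels of the members was not tested.

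**Figure D5:**
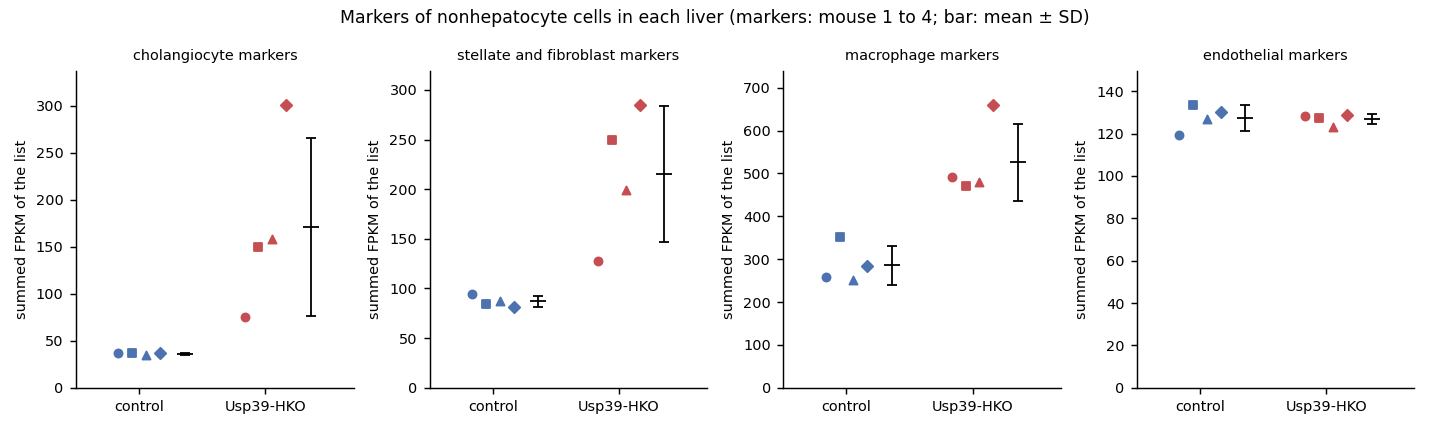
Summed FPKM of the cholangiocyte, stellate cell and fibroblast, macrophage and endothelial marker lists (y axes, linear from 0) in each control and *Usp39*-HKO liver; marker shapes are mouse 1 to 4 of a group, and bars give mean ± SD. The cholangiocyte sum is 34.8 to 37.2 FPKM in controls and 74.8 to 301 FPKM in *Usp39*-HKO livers, whereas the endothelial sum overlaps between groups.

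Control mouse 4 stood apart in another marker list: 6 pancreas markers summed to 482 FPKM there, against 2.45 to 4.72 FPKM in the other 7 mice, and the 1 tested marker of that list was not called, although it was called as lower without control mouse 1, 2 or 3. Without control mouse 4 the same 4 members were called, and the adjusted p of *Ajuba* rose to 0.0164.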

How the data were processed

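Bulk RNA of 8 mouse livers (4 control, 4 *Usp39*-HKO) was analysed, grouped by the genotype in the labels, and each replicate was a separate mouse. The submitters' processing notes name Trim Galore 0.6.1, FastQC 0.11.9, Picard, HISAT2, featureCounts and mm10, and the authors aligned with HISAT2 and counted per gene with featureCounts. Strandedness and the handling of multi-gene reads are not given in the sources used here. The authors deposited raw counts per gene and FPKM computed from them, the exon length and the total count per mouse. The mean signal, log2 fold change, its standard error and statistic (scores) and p-values of the DESeq2 comparison that the authors deposited were not used. Of 55699 rows, 314 repeated an identifier with identical values and were read once.

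Counts were tested with edgeR 4.0.16 (quasi-likelihood, TMM) in R 4.3.3, over 14340 genes with FPKM of at least 0.5 in at least 4 mice, two-sided, with Benjamini-Hochberg adjustment over all genes tested. The procedure was tested on simulated data. Each standard error was derived from the F statistic of the gene. Values per mouse were compared by exact permutation over 70 assignments. Alternatives were edgeR with median-ratio factors or without TMM, DESeq2 1.42.0, limma 3.58.1 on log2(FPKM + 1) and log2(FPKM + 0.1), limma-voom with quality weights, other filters, and leaving out each mouse.

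The members and gene lists were chosen with earlier results of these data known. All members and *Usp39* were named. Of each other Hippo or target list, the genes called (at most the 6 with the largest change) and genes with under 3 counts in every mouse were named, of each marker list the 2 called genes with the largest change, and for *Yap1* and *Ankrd1* the 3 tested genes with the nearest profile. Other genes named in the text were chosen after their values were seen. Exons and coordinates were those of GENCODE M21 (GRCm38), which held 99.6% of the identifiers. A floor of 3 counts was 0.288 to 0.349 CPM, and floors and count intervals cover counting error only.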

Additional observations from a re-analysis of the deposited data

Results flagged for a closer look

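In each group of 4 mice, the FPKM of a gene was looked at for a mouse whose gap to its nearest neighbour took up more of the range of the group than Dixon's 95% critical value for 4 samples. Of 24 such groups 2 passed, and chance passes about 1 in 20. *Lats2* in *Usp39*-HKO mouse 1, at 2.421 FPKM, lay below the other *Usp39*-HKO mice at 3.04 to 3.14 FPKM, a gap of 0.859 of the range. *Ajuba* in control mouse 2, at 5.534 FPKM, lay above the other controls at 3.58 to 3.73 FPKM, a gap of 0.919 of the range.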

How the results depend on the processing

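No paired analysis was possible because the labels give the mice no pairing across genotypes. The calls of *Wwtr1*, *Ajuba* and *Axl* were kept under all 16 alternatives and that of *Tead1* under all 15 that tested it, since a filter on a mean FPKM of 5 or more removed it. The 4 members called became 7 without TMM scaling and with limma on log2(FPKM + 1) or log2(FPKM + 0.1), and *Yap1* then turned to 0.18, 0.16 and 0.18 on the log2 scale; with the mean FPKM filter it turned to 0.021, all uncalled. The FPKM difference of *Yap1* (*Usp39*-HKO minus control) was 1.49 as deposited and −0.505 after division by the TMM factors, and that of *Nuak2*, −0.0491 FPKM, ran from −0.386 to 0.217 when any mouse was left out. The 7 other Hippo genes called became 12 without TMM scaling, 11 and 11 with limma, 2 under the mean FPKM filter, and 5 to 8 when a mouse was left out. The 3225 genes called became 1595 of 6672 under that filter. They ran from 1931 to 3510 when a mouse was left out, with 1931 without control mouse 3, 2043 without control mouse 4 and 2094 without *Usp39*-HKO mouse 4, where fewer mice remained. The *Yap1* to *Wwtr1* log2 ratio ran from −0.62 to −0.45 when a mouse was left out, with an exact permutation p of 0.0571 without any control mouse, where 3 mice remained. The other target genes called numbered 6 to 12 (9 as reported) and the cell type markers 23 to 38 (33 as reported). The causes of the other changes were not tested. Depth limits *Ankrd1*, with at most 4 counts per control mouse.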
